A study of Prunus persica with 24 samples.

Results

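Prupe.1G255500 was followed through storage of peach (Prunus persica) fruit after harvest. It was chosen by its identifier, as the gene known as PpCCD4, and is 1 of 26873 gene identifiers listed and 1 of the 15420 that passed the filter on low values. It has 1 row in each of the 2 tables, and its values match those of no other tested identifier. The tables carry neither gene names nor products, and 0 identifiers matched the RefSeq gene table used here, so the name is background knowledge and was not checked against a sequence or an annotation.

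The fruit had spent 2 days at 5 °C before being divided at random between 25 °C, called the common condition, and 35 °C, called the high temperature. Flesh was taken on days 1, 2, 3, 5, 6 and 7, with 2 libraries in each of the 12 groups, made from RNA depleted of rRNA. Each group is deposited as 1 value per gene in FPKM (fragments counted per kilobase of transcript and scaled to the mapped total), so no spread between replicates exists for any value. The labels used here name no cultivar and no flesh colour, and no group is untreated.

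Carotenoid cleavage dioxygenases are iron-dependent enzymes that cut the long conjugated chain of carotenoids and release apocarotenoids, some of them scent compounds. CCD4 works in plastids, where carotenoids are stored, and its activity lowers the carotenoid content of petals and fruit flesh in several species. In peach, a working PpCCD4 goes with white flesh, and alleles that disable it go with yellow flesh. Its transcript level is therefore of interest during ripening, although a transcript level does not show whether the allele present encodes a working enzyme.

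Storage at the 2 temperatures gave Prupe.1G255500 courses of different shape. At 25 °C its level was lowest on day 2 and then higher on each later sampling day, up to 312 FPKM on day 7. At 35 °C it stood at 223 FPKM on day 2 and at 73.9 FPKM or less on each of the other 5 days. It was thus 5.18 times as high at 35 °C as at 25 °C on day 2, and 7.03 times as high at 25 °C as at 35 °C on day 7. None of the tests across days called the gene after adjustment over all 15420 genes, so the courses below are a description of 12 values.

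At 25 °C, the rescaled levels were 71.7 FPKM on day 1, 43.1 FPKM on day 2, 89.4 FPKM on day 3, 156 FPKM on day 5, 172 FPKM on day 6 and 312 FPKM on day 7. The 3 late days all lay above the 3 early days, without overlap, and day 7 was 4.35 times day 1. At 35 °C, the levels were 48.1 FPKM on day 1, 223 FPKM on day 2, 69.6 FPKM on day 3, 47.8 FPKM on day 5, 73.9 FPKM on day 6 and 44.4 FPKM on day 7. Here early and late days overlapped, and day 7 was close to day 1, at 0.923 times its level. In whole flesh, fewer cells of a type that carries the transcript and less transcript per cell cannot be told apart.

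**Figure D1:**
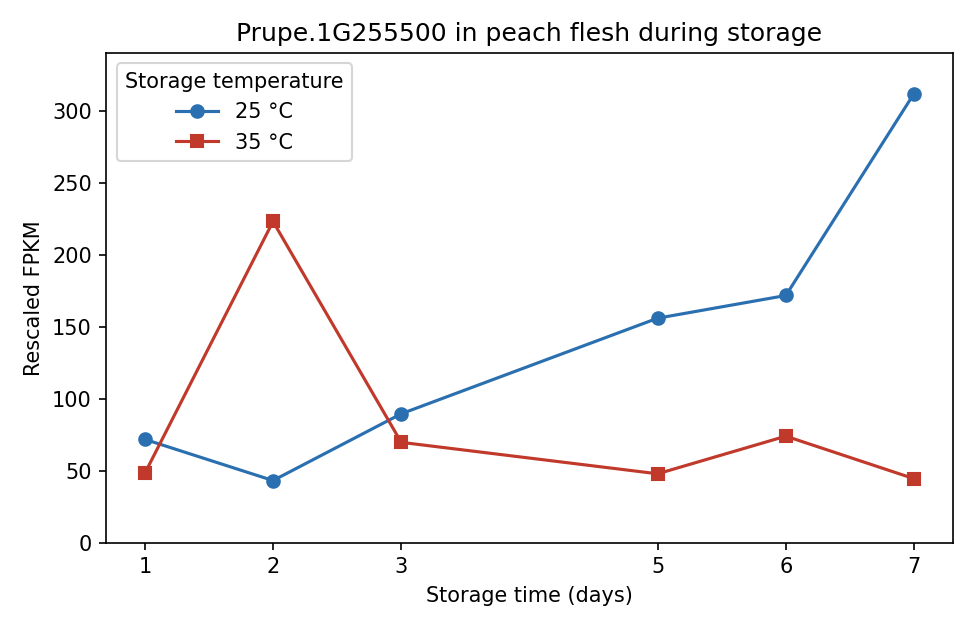
Level of Prupe.1G255500 in rescaled FPKM (y axis, linear, from 0) against storage time in days (x axis), with 1 point for each temperature and day and no replicate error; circles are 25 °C and squares 35 °C. The 25 °C line runs from 43.1 FPKM on day 2 to 312 FPKM on day 7, whereas the 35 °C line has a single high point of 223 FPKM on day 2.

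In order of level, day 7 at 25 °C (312 FPKM) came first and day 2 at 35 °C (223 FPKM) next. Days 6 and 5 at 25 °C (172 and 156 FPKM) followed, then day 3 at 25 °C (89.4 FPKM). The remaining 7 values lay between 43.1 and 73.9 FPKM and mixed both temperatures, with day 2 at 25 °C the lowest of the 12 and day 7 at 35 °C next to it. Which neighbours in this order differ beyond the spread of replicates cannot be said, because each group has 1 value. The transcript ranged from an upper to a very high place among flesh transcripts. On day 2 at 25 °C it was 2892nd among identifiers by deposited FPKM, with 81.2% of tested genes below it. On day 7 at 25 °C it was 308th, with 98.0% of tested genes below it, and on day 2 at 35 °C it was 449th.

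The steps between successive sampling days were read against all tested genes. At 25 °C the level on day 2 was 0.601 times that on day 1, which is under 2-fold. At least 2-fold lower levels were found in 6.17% of genes over this step. From day 2 to day 3 it was 2.08 times as high, a step of at least 2-fold upwards that 1.44% of genes shared. The later steps upwards were each under 2-fold, at 1.74 times from day 3 to day 5, 1.10 times from day 5 to day 6 and 1.82 times from day 6 to day 7. Over these steps 2.08%, 3.51% and 1.56% of genes were at least 2-fold higher. From day 1 to day 7 the difference was 2.11 on the log2(FPKM + 1) scale, past 2-fold, as in 4.15% of genes.

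At 35 °C the large steps came at the start. Day 2 stood at 4.64 times day 1, a difference of 2.19 on the log2 scale, and 10.4% of genes were at least 2-fold higher on day 2. Day 3 in turn stood at 0.312 times day 2, a log2 difference of -1.67 over a step in which 3.31% of genes were at least 2-fold lower. From day 3 onwards no step reached 2-fold. Day 5 stood at 0.686 times day 3, day 6 at 1.55 times day 5 and day 7 at 0.600 times day 6, in steps that took 3.03% of genes at least 2-fold down, 1.58% up and 1.74% down. The day of the highest level was day 7 at 25 °C, as in 14.4% of tested genes, and day 2 at 35 °C, as in 19.4%.

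Over the 6 days, the level varied more than that of most genes at either temperature. At 25 °C its highest value was 7.24 times its lowest, a log2 range of 2.83 against a median of 0.85 over tested genes, and 96.1% of genes had a smaller range. At 35 °C the ratio was 5.03 and the log2 range 2.30 against a median of 0.88, with 92.5% of genes having a smaller range. The high end of each range was a single day, day 7 at 25 °C and day 2 at 35 °C.

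The comparison of temperatures within a day asked when the 2 storage conditions differed in this transcript. On day 1 the level at 35 °C was 0.671 times that at 25 °C, a log2 difference of -0.57 that did not reach 2-fold. At 35 °C 3.35% of genes were at least 2-fold lower on that day, and 7.86% had a lower difference than Prupe.1G255500. On day 2 the difference was 2.35 in the other direction. At least 2-fold higher levels at 35 °C were found in 9.46% of genes on that day, and 99.2% of genes had a lower difference than Prupe.1G255500. On that day the 2 profiles differed widely in general, with 21.1% of genes past 2-fold in either direction, and its part in the value of Prupe.1G255500 was not tested.

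On day 3 the levels were closer than on day 1 or 2, with 89.4 FPKM in the cooler and 69.6 FPKM in the warmer fruit. The log2 difference was -0.36, and 25.7% of genes had a lower one. On that day 6.91% of genes were at least 2-fold lower at 35 °C. The late days had the lower level at 35 °C each time. The log2 difference was -1.68 on day 5 and -1.20 on day 6, and it reached -2.79 by day 7. In turn, 7.41%, 5.78% and 4.75% of genes were at least 2-fold lower at the higher temperature. On day 7, 0.311% of tested genes had a lower difference. The median difference over all tested genes lay between -0.00 and 0.04 on the 6 days. With FPKM as deposited the differences were 2.54 on day 2 and -2.77 on day 7, and each day kept the direction it had after rescaling. These within-day differences compare single values and have no test.

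**Figure D2:**
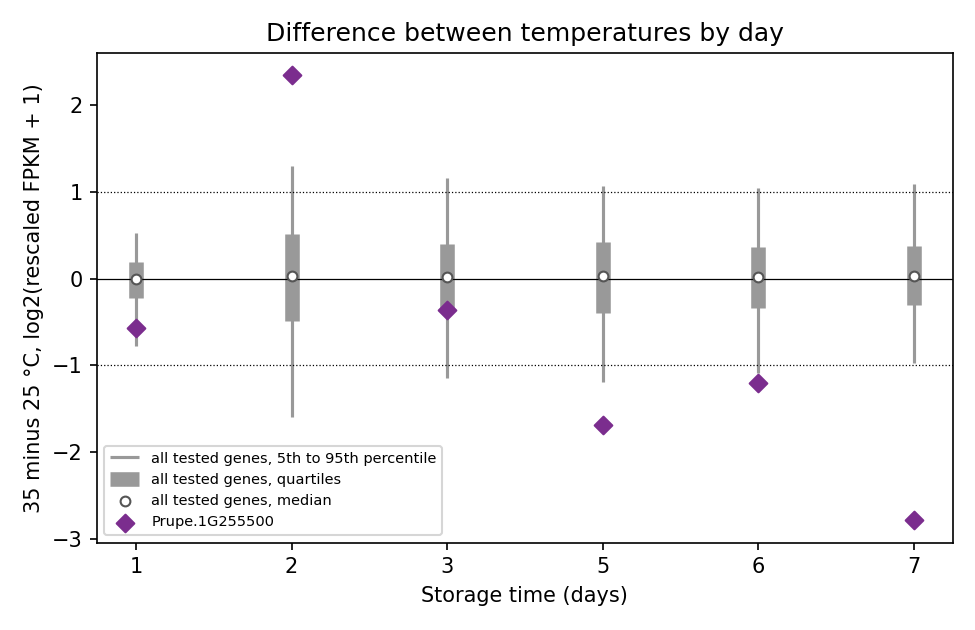
Difference between 35 and 25 °C on the log2(rescaled FPKM + 1) scale (y axis) on each sampling day (x axis); diamonds are Prupe.1G255500, grey lines span the 5th to 95th percentile of 15420 tested genes, thick bars their quartiles and open circles their medians, and dotted lines mark 2-fold. Prupe.1G255500 lies above the grey line on day 2 and below it on days 5, 6 and 7, and within it on days 1 and 3.

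The mean difference between temperatures was tested with limma over the 12 columns. Day was a term in the fit. The error comes from how the within-day differences vary, drawn by limma towards the spread of other genes of similar level. The 6 within-day differences of Prupe.1G255500 had an SD of 1.73, so its own spread alone would give a larger error than the one printed. The mean level of Prupe.1G255500 over the 6 days was 141 FPKM at 25 °C, against 84.5 FPKM at the higher temperature. The log2 difference was -0.71 ± 0.54 (SE, limma adjusted p = 0.392), with a 95% interval from -1.94 to 0.53. The gene was not called, where 12% of genes were. It was lower at 35 °C on 5 of the 6 days, and an exact two-sided permutation test of the 6 within-day differences gave p = 0.375, where 0.0312 is the smallest p this design allows. Without day 2 the difference was -1.32 (limma adjusted p = 0.0678). Day 2 was the only day with a higher level at 35 °C, so all 5 remaining days were then lower. The exact permutation p was thereby fixed at 0.0625, the smallest that 5 days can give, and adds no support. This permutation test without day 2 was added after the data were seen. Without day 7 the difference was -0.29.

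Change over storage was tested by setting the late days (5, 6 and 7) against the early days (1, 2 and 3). The error was the spread of days within these periods, pooled over both temperatures. It is therefore the same at 25 and 35 °C, and the high value on day 2 at 35 °C enters it at both. At 25 °C the means were 68.1 FPKM early and 213 FPKM late. The log2 change was 1.62 ± 0.51 (SE, limma adjusted p = 0.368), with a 95% interval from 0.50 to 2.75 that takes no account of the number of genes tested. The unadjusted limma p was 0.00862, which was smaller in 2.33% of tested genes. In this comparison 0% of genes were called, and 1614 had an unadjusted limma p under 0.05, more than the 771 that chance alone would give. A linear slope on day gave 0.39 ± 0.11 log2 units per day at 25 °C (SE, limma adjusted p = 0.114), where 1.85% of genes were called. The error of the slope was likewise pooled over both temperatures.

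At 35 °C the early mean was 114 FPKM, of which day 2 made the largest part, and the late mean 55.3 FPKM. The log2 change was -0.74 ± 0.51 (SE, limma adjusted p = 0.766), in a comparison that called 0.00649% of genes. Without day 2 it was -0.10, and without day 1 it was -1.20. The slope on day was -0.14 ± 0.11 per day (SE, limma adjusted p = 0.614), where 0.253% of genes were called, with -0.35 without day 1 and -0.00 without day 2.

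To compare the courses, the late-minus-early change at 25 °C was subtracted from that at 35 °C. The difference was -2.37 ± 0.72 on the log2 scale (SE, limma adjusted p = 1.00), with a 95% interval from -3.95 to -0.78 for this gene alone. In size it was among the largest measured, with 0.117% of tested genes further from 0, and its unadjusted limma p was 0.00724. No gene was called in this comparison (0%), and 471 of 15420 genes had an unadjusted limma p under 0.05, fewer than the 771 that chance alone would give. The difference of the slopes, added after the data were seen, was -0.54 ± 0.16 per day (SE, limma adjusted p = 0.941) and also called 0 genes, with 737 at an unadjusted limma p under 0.05. It was -0.85 without day 1 and -0.33 without day 2. Without day 2 the late-minus-early changes differed by -1.43, in the same direction.

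**Figure D3:**
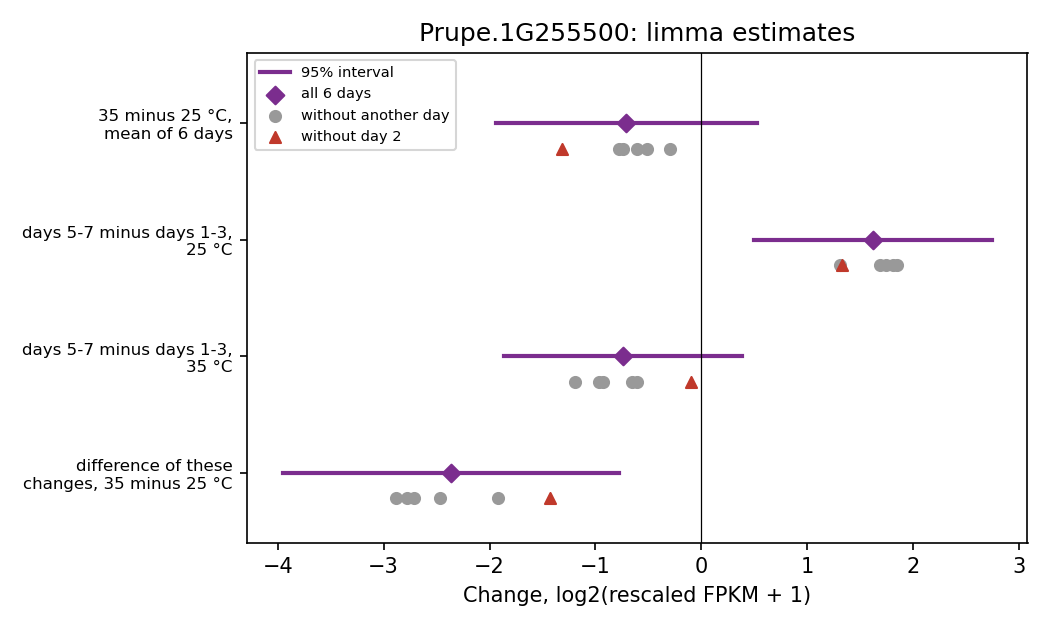
limma estimates for Prupe.1G255500 on the log2(rescaled FPKM + 1) scale (x axis) for the mean temperature difference, the late-minus-early change at each temperature and the difference of these changes (y axis); diamonds use all 6 days, lines are 95% intervals unadjusted for the number of genes, circles leave out 1 of the days 1, 3, 5, 6 or 7, and triangles leave out day 2. The change at 35 °C moves from -0.74 to -0.10 without day 2, whereas the change at 25 °C stays above 1.31.

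Genes that shared the opposite differences were counted by criteria chosen after the values of Prupe.1G255500 were seen. At least 2-fold higher levels at 35 °C on day 2 were found in 1458 of 15420 genes (9.46%). At least 2-fold lower levels on each of days 5, 6 and 7 were found in 217 genes (1.41%). Both held for 3 genes (0.0195%), namely Prupe.1G255500, Prupe.1G213200 and Prupe.6G110800. This count also depended on the scale, with 4 genes for FPKM as deposited, 4 with quantile normalization and 6 with a pseudocount of 0.1. On day 2, Prupe.6G110800 was listed at 10.2 FPKM at 25 °C against 23.5 FPKM at 35 °C, and on day 7 at 24.5 FPKM against 5.23 FPKM. Prupe.1G213200 was at 1.85 FPKM against 5.37 FPKM on day 2, and at 14.5 FPKM against 1.83 FPKM on day 7. Its late levels at 35 °C were low, with 0.208 FPKM on day 5 and 1.07 FPKM on day 6. At 35 °C both were lower on day 3 than on day 2, as Prupe.1G255500 was.

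Adding 3 further differences, namely day 7 above day 1 at 25 °C, day 2 above day 1 at 35 °C and day 3 below day 2 at 35 °C, each by at least 2-fold, left 1 gene, Prupe.1G255500 itself. The number depended on the scale: it was 1 with FPKM as deposited, 2 with quantile normalization and 3 with a pseudocount of 0.1, and Prupe.1G255500 was among them each time. As the criteria were taken from its own values, the count describes how many genes shared its differences and supports nothing further.

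Similarity of course was measured as Pearson's r with Prupe.1G255500 on the log2 scale over the 12 columns, among 10202 other genes whose mean reached 5 FPKM. The columns share storage days and, within a temperature, a table, so r is given as a description. No gene reached 0.9, 27 reached 0.8 or more, and 17 had -0.8 or less, with a median of -0.00 and quartiles of -0.24 and 0.24. The 5 genes most alike were Prupe.3G040200 (r = 0.89), Prupe.1G397200 (r = 0.89), Prupe.1G340000 (r = 0.88), Prupe.6G235600 (r = 0.88) and Prupe.1G389400 (r = 0.88). Ranked by Spearman's rho instead, 1 of these was among the first 5.

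The likeness was in shape and not in size. Prupe.3G040200 stayed between 12.7 and 17.9 FPKM, a ratio of 1.41, whereas Prupe.1G255500 spanned a ratio of 7.24. Prupe.1G397200, an abundant transcript, had its highest level on day 7 at 25 °C (1093 FPKM) and its second on day 2 at 35 °C (986 FPKM), as Prupe.1G255500 did. It spanned a ratio of 2.41, from 454 FPKM on day 5 at 35 °C. Prupe.1G389400 spanned a ratio of 3.17, the widest of the 5, from 15.1 FPKM on day 1 at 35 °C to 47.7 FPKM on day 7 at 25 °C, with 22.5 FPKM on day 2 at 35 °C. Over the 27 genes, the log2 range ran from 0.35 to 2.24, and Prupe.1G255500 had 2.83.

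**Figure D4:**
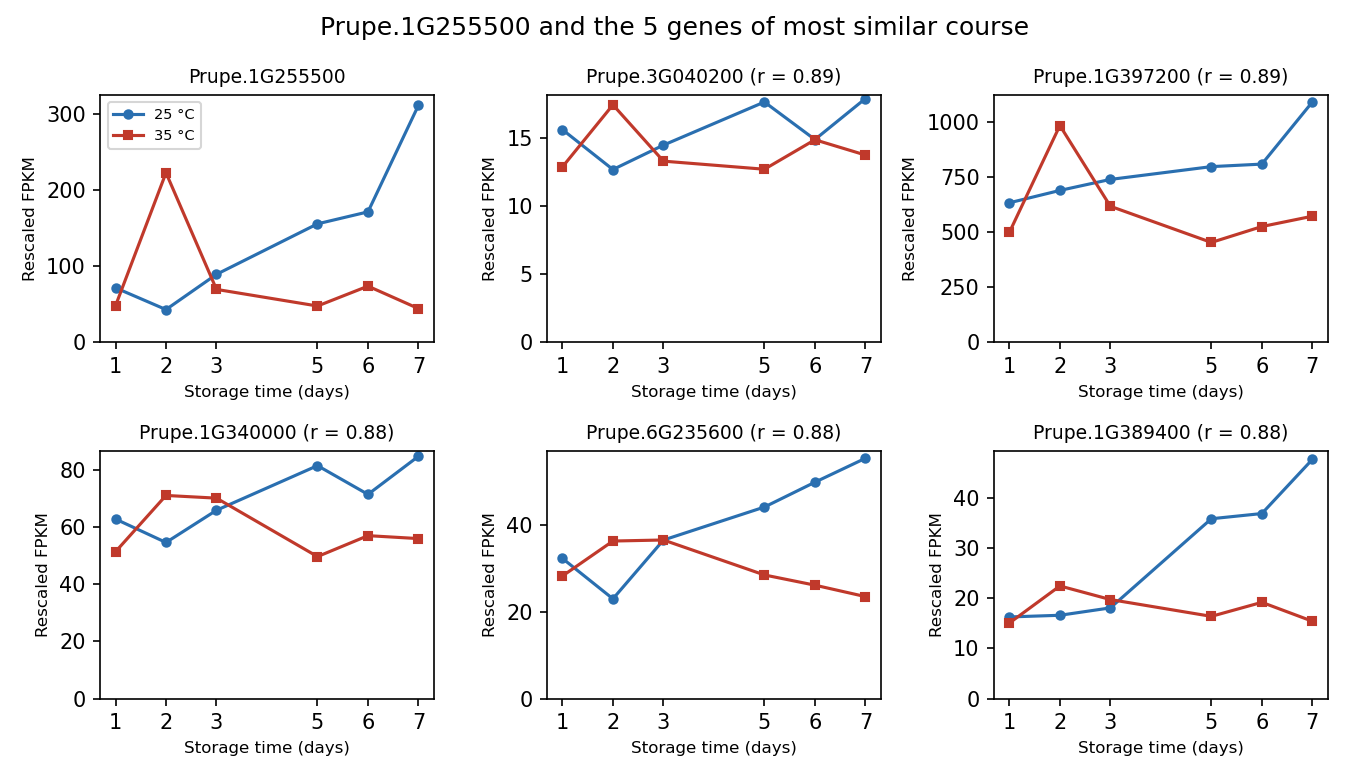
Rescaled FPKM (y axes, linear, from 0, each panel with its own range) against storage time in days (x axes) for Prupe.1G255500 and the 5 genes with the highest Pearson's r (in each panel title); circles are 25 °C and squares 35 °C, 1 value each. On day 7 each panel has the higher level at 25 °C. At 35 °C the highest day is day 2 in Prupe.1G255500, Prupe.3G040200, Prupe.1G397200 and Prupe.1G389400. Days 2 and 3 at 35 °C are close in Prupe.1G340000, with day 2 the higher, and in Prupe.6G235600, with day 3 the higher.

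The most opposite courses were those of Prupe.4G018100 (r = -0.90), Prupe.1G426000 (r = -0.90) and Prupe.2G301200 (r = -0.89). Prupe.4G018100 had its lowest level, 8.52 FPKM, on day 2 at 35 °C and its second lowest, 10.1 FPKM, on day 5 at 25 °C. Its highest was 24.1 FPKM on day 5 at 35 °C.

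The identifiers next in number were compared to see whether they followed the same course. Prupe.1G255400 and Prupe.1G255600, the nearest on either side, were listed at no more than 0.636 FPKM and 0.924 FPKM in any column as deposited and did not pass the filter. Prupe.1G255800 was listed at 0 in 10 of the 12 columns. Prupe.1G255200 had a mean of 39.8 FPKM at 25 °C against 24.1 FPKM at 35 °C and was called lower at 35 °C, by a log2 difference of -0.71 ± 0.12 (SE, limma adjusted p = 0.0232). The call was kept without day 1 (limma adjusted p = 0.0101) and lost when any other day was left out, with a limma adjusted p between 0.0511 and 0.0771 and a log2 difference between -0.73 and -0.66. Its mean log2 difference was that of Prupe.1G255500 to 2 decimals, with a smaller error, and its r with Prupe.1G255500 was 0.21. Prupe.1G255300 (r = -0.18) and Prupe.1G255700 (r = -0.27) were not called, with limma adjusted p of 0.267 and 0.836.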

How the data were processed

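RNA of peach flesh was measured in 24 libraries, 2 for each of 12 groups. The authors deposited FPKM in 2 tables, one per temperature, with 1 column per day and no replicate number, so each value is the authors' own for a group. The sources used here do not state how libraries were combined, which genome build and annotation served, or whether the tables were scaled together. The submitters' processing notes name Cufflinks 2.1.1, TopHat2 2.0.10, Bowtie2 2.1.0, SAMtools 0.1.18 and FastQC 0.10.1, with no role given. Absolute read depth is unknown, since transcript lengths are not known here. As a rough guide to what a read is worth, rows under 0.3 FPKM in every column were set against day 1 at 25 °C. The most frequent ratio was 0.986 to 1.39 in the other columns at 25 °C and 0.642 to 0.946 at 35 °C. Its bearing on the results was not tested. Column sums ran from 651850 to 882184 FPKM.

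The 29300 rows were summed to 26873 identifiers and rescaled by median-of-ratios factors (0.922 to 1.06, over 12194 identifiers above 1 FPKM throughout). Genes that reached 1 rescaled FPKM in 2 or more columns were tested on log2(FPKM + 1) with limma 3.58.1 in R 4.3.3, a mean trend and Benjamini-Hochberg adjustment over all 15420, called under 0.05. Days served as units, so p-values measure spread between days, not between fruit. In each fit limma drew the variance of a gene towards that of genes of similar level. A pseudocount understates changes of low genes. Rescaling removes a factor common to all genes of a table, whereas one that differs between genes stays in the temperature differences. Such a factor cancels in changes over storage only if it is the same in every column of the table, which was not tested.

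The gene and all criteria were chosen with earlier results of these data known. The rule for named genes was the 5 most and 3 least correlated genes whose mean reached 5 FPKM, and the 3 identifiers next in number on each side. Lists of other carotenoid enzymes rest on product names, matched no identifier and were not used. Alternatives were another pseudocount, other filters and scalings, rows kept apart, identical values counted once, each day left out, an exact permutation test, day as a term, Spearman correlation and, added after the data were seen, the difference of slopes, the permutation test without day 2 and the test of Prupe.1G255200 with each day left out.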

Additional observations from a re-analysis of the deposited data

How the results depend on the processing

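No paired analysis was possible because each group is a single column without a replicate number, as far as pairing libraries by that number goes. The temperatures were paired by day instead, and no replicate could be left out. Prupe.1G255500 was uncalled in every alternative fitted with limma, and its direction was the same in each of them. With other pseudocounts, filters, scalings or treatments of rows, its log2 temperature difference lay between -0.72 and -0.56, its late-minus-early change between 1.62 and 1.69 at 25 °C and between -0.77 and -0.69 at 35 °C, and the difference of these changes between -2.40 and -2.37. Leaving out 1 day moved them more, to between -1.32 and -0.29, 1.31 and 1.85, -1.20 and -0.10, and -2.89 and -1.43. The lowest limma adjusted p in any alternative was 0.0570, for the slope at 25 °C without day 2 (0.33 per day, range of adjusted p over alternatives 0.0570 to 0.381). The number of genes called between the temperatures was 1849 of 15420, against 397 of 22174 with no filter and 1216 of 10203 where the mean had to reach 5 FPKM. Without day 1 the number was 3006, without day 2 it became 211, without day 3 or 5 there were 0, and without days 6 and 7 in turn 1 and 129. Calls for the change at 25 °C went from 0 to at most 126, those at 35 °C from 1 to between 0 and 72, both highest without day 3, and those for the difference of the changes from 0 to at most 1. The slope called 18 to 371 genes at 25 °C, from 286, and 0 to 67 at 35 °C, from 39. The cause was not tested for any of these. The limits set by depth are unknown.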
